A study of Mus musculus and Acomys cahirinus with 84 samples.

Results

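Primary skin fibroblasts of wild mice, collected 12 d after 10 Gy of gamma radiation, were compared with untreated wild mouse fibroblasts collected at the same time. Libraries were chosen by their labels alone: the 4 libraries labelled wild mouse, 12 d and 10 gy, against the 4 labelled wild mouse, 12 d and untreated. These are 8 of the 84 libraries of the series, which also holds 20 Gy and untreated passaged cells at 12 d, 0, 10 and 20 Gy at 24 h, and the same groups in mice labelled C56BL6 and in the spiny mouse Acomys cahirinus. No group carries an engineered allele or a drug in the labels, and the wild mice have no strain name, age or sex there. Library names give each replicate number its own animal code, so the 4 replicates are read as 4 animals, each with an untreated and an irradiated culture. The labels give every 24 h library one batch and every 12 d library another, which means that an effect of time cannot be told apart from one of batch.

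Ionising radiation breaks DNA, and the breaks stabilise p53, a transcription factor that switches on inhibitors of cell division, its own antagonist Mdm2 and genes of cell death. Fibroblasts that cannot repair the damage tend to leave the cell cycle for good, a state called senescence, and then secrete cytokines, proteases and growth factors, together called the senescence-associated secretory phenotype. DNA in the cytoplasm and viral RNA are read by sensors that lead to type I interferon, which acts through transcription factors such as STAT2 and IRF9 on a large set of antiviral genes. Dermal fibroblasts are also the cells that make most of the collagen and elastic fibres of the skin.

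Most listed antiviral genes rose at 10 Gy, so the promoters of 5 of them are shown. These had the largest log2 fold changes among called genes whose promoter holds a match to an interferon motif and overlaps no annotated exon. Promoters of Oas3 (4.77), Usp18 (3.83), Ifit1 (3.65) and Rtp4 (2.84) hold matches too, but overlap an annotated exon and were left out. Each of the 5 is given as the 200 bases before the annotated start of the gene, 5′ to 3′ on the strand of the gene. Capitals mark GAAANNGAAA or, on the other strand, TTTCNNTTTC. This is the core of the interferon-stimulated response element, the DNA motif read by IRF9 in complex with STAT2 and by other IRF proteins. Oas2, which makes a messenger that activates RNase L, is at chr5:120887934-120888133 (minus strand). Rsad2, the antiviral enzyme viperin, is at chr12:26506452-26506651 (minus strand). Zbp1, a sensor of left-handed nucleic acid, is at chr2:173060725-173060924 (minus strand). Isg15, a ubiquitin-like protein, is at chr4:156285304-156285503 (minus strand). Ifit3, which belongs to a family that binds foreign RNA, is at chr19:34560699-34560898 (plus strand). All coordinates and sequences are those of the GRCm39 reference assembly, not of the wild mice.
Oas2: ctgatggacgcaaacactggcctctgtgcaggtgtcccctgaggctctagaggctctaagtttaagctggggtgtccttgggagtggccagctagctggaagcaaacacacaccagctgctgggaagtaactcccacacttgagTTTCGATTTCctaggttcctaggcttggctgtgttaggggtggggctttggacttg
Rsad2: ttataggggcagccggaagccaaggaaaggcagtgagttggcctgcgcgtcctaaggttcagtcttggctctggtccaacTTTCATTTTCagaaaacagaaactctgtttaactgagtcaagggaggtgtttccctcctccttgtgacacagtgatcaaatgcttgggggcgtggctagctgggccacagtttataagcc
Zbp1: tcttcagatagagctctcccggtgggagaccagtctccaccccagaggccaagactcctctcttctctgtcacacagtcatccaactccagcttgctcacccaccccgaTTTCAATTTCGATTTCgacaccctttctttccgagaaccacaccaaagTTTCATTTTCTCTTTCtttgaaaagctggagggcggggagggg
Isg15: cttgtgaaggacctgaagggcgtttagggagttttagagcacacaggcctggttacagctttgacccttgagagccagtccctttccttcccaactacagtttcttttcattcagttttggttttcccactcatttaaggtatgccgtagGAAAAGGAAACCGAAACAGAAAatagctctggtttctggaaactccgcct
Ifit3: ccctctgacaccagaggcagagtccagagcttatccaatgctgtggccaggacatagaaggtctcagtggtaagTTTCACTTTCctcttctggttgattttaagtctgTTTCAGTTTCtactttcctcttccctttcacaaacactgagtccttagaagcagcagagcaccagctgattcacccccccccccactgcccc

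Isg15 held 3 matches in this window, Zbp1 4, Ifit3 2, and Oas2 and Rsad2 1 each. Overlapping matches were counted separately. The match nearest to the start ended 28 bases before it in Zbp1, 29 in Isg15, 47 in Oas2, 83 in Ifit3 and 111 in Rsad2. Among all 21770 protein-coding promoters of this length, 532 (2.44%) held the motif, and among those of the genes tested at 10 Gy 301 of 12700 (2.37%). It was found in 12 of 29 listed interferon effectors (41.4%), in 1 of 12 listed interferon sensors and factors (8.33%), and in 0 of 20 collagens. The next highest shares were in the lists of homologous recombination (2 of 15, 13.3%), secreted proteases and inhibitors (2 of 16, 12.5%) and senescence markers (1 of 9, 11.1%). The effector Ifi27 held a match and did not pass at 10 Gy (log2 fold change 0.24, adjusted p = 0.232). Genes higher at 10 Gy held it in 48 of 792 promoters (6.06%) and genes lower in 18 of 898 (2%). A match is a description of the letters, and a promoter without one, such as those of Oas1a (log2 fold change 4.17), Oasl1 (3.6), Ifi44 (3.54) and Cxcl10 (3.54), which rose more than Isg15 or Ifit3, is only without these letters in this window.

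Sequencing depth was similar across the 8 libraries, at 23.14 to 31.2 M assigned counts. Taken as the floor, 3 counts equalled 0.0962 to 0.13 per M counts of the library, before any scaling between libraries. Levels in CPM (counts per M) are given after TMM scaling of the library sizes, so 3 counts can differ somewhat from this floor in CPM. Genes with any count numbered 19278 to 20667 in the untreated libraries and 21861 to 23582 at 10 Gy, without overlap. The labelled cell type was checked against marker lists. All 10 fibroblast markers, among them Col1a1, Dcn, Pdgfra and Vim, passed the expression filter, and their summed level was 13853 to 89176 CPM untreated and 11604 to 34124 CPM at 10 Gy. Of these markers, 2 were lower at 10 Gy, Col3a1 and Pdgfra. Keratinocyte markers summed to 1.94 to 6.61 CPM untreated and 2.74 to 7.44 CPM at 10 Gy, with Krt1 at 0 counts and Dsp higher (log2 fold change 2.85). Leukocyte and macrophage markers summed to 20.8 to 48 and 28.3 to 46.8 CPM, with C1qb at 0 counts and Cd68 higher (1.06). Endothelial markers summed to 0.362 to 15.1 and 0.788 to 13 CPM, and melanocyte and Schwann cell markers to 4.32 to 7.93 and 2.70 to 6.20 CPM, with Tyr and Dct at 0 counts. Pericyte and smooth muscle markers summed to 82.2 to 264 CPM untreated and 103 to 410 CPM at 10 Gy, and 2 of the 5 tested, Myh11 (0.76) and Des (0.62), were higher. Skeletal muscle markers summed to 1.92 to 24 and 9 to 19.9 CPM, and adipocyte markers to 5.19 to 34 and 4.92 to 31.2 CPM, with Lep at 0 counts and Adipoq lower (−2.95). The libraries are of bulk RNA, so for every gene below a change in the share of some cells and a change of RNA per cell cannot be told apart.

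The animals differed from one another, and replicates 1 and 4 were alike. Their log2 CPM values correlated at 0.991 untreated and 0.993 at 10 Gy, against 0.906 to 0.959 for the 10 other pairs of replicates in these groups. No tested gene differed 8-fold between them in either group, against 76 to 355 genes in the other pairs. Their counts still varied 33.1 to 34 times more than sampling noise (165 to 557 times in the other pairs), so they are not copies of 1 library. Library names give them separate animal codes, the same at 24 h and 12 d. At 24 h, summed pericyte and smooth muscle markers were 1746 to 2417 CPM in replicate 1 and 74.4 to 123 CPM in replicate 4. At 12 d they were 73.1 to 172 CPM in replicate 1 and 68.3 to 149 CPM in replicate 4. Whether replicates 1 and 4 share an origin, and whether each code is the same animal at both times, was not tested. Counts of genes below are therefore also given without replicate 1 and without replicate 4. Replicate 3 stood apart: 22 genes were at least 20-fold above the other 3 animals in all 4 groups at 12 d, among them the transcription factors Tbx4, Mef2c and Foxp2 and the signalling protein Bmp4, and 17 were at least 20-fold below, among them Hoxc8, Hoxc9, Hoxc10 and Hoxc13. In replicate 2 these counts were 5 and 5, with Zic1 above and Hoxb7 below. For replicates 1 and 4 their likeness to each other leaves no such count. Tests compared each irradiated culture with the untreated culture of the same number.

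At 10 Gy, 1824 of 14391 genes tested (12.7%) passed an adjusted p of 0.05 in edgeR's quasi-likelihood test with the replicate number as a block. Of these, 857 (5.96%) were higher and 967 (6.72%) lower, and 653 changed at least 2-fold, 423 higher and 230 lower. In 1784 of the 1824 genes all 4 pairs had the direction of the fit. The count varied with the libraries and the model. It was 365 without replicate 1 (2.52%), 1775 without replicate 2, 1406 without replicate 3 (9.69%), 560 without replicate 4 (3.92%) and 38 without the replicate block (0.264%). Summing replicates 1 and 4 into 1 replicate gave 520 genes. A core of 314 genes, 179 higher and 135 lower, passed both without replicate 1 and without replicate 4. Irrespective of any test, the irradiated and untreated libraries did not overlap in 1277 genes (8.87%), with the 4 irradiated libraries above in 550 (3.82%) and below in 727 (5.05%).

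**Figure D1:**
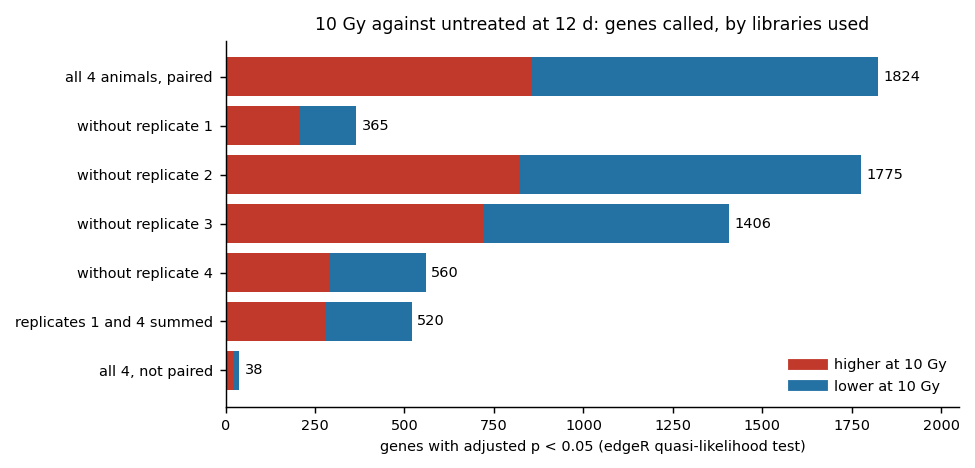
Bars give the number of genes past an adjusted p of 0.05 at 10 Gy against untreated (edgeR quasi-likelihood test) with all 4 replicates, without each replicate in turn, with replicates 1 and 4 summed, and without the replicate block. The bar of all replicates stands at 1824 genes, the bars without replicate 1 and without replicate 4 at 365 and 560, and the bar without the block at 38.

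p53 target genes were higher 12 d after irradiation. Of 11 listed targets that arrest division or feed back on p53, 10 rose, 1 fell and the median log2 fold change was 1.03, beside −0.01 over all genes tested. Of 12 targets that act in cell death, 11 rose, with a median of 1.05. Without replicate 1, 8 of the first 11 and 4 of the 12 passed, and without replicate 4, 7 and 4.

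Cdkn1a (chr17:29309950-29319701), which encodes the cyclin-dependent kinase inhibitor p21, was at 83.7, 37.5, 128 and 76.3 CPM in untreated replicates 1 to 4 and at 442, 266, 411 and 416 CPM in the same order at 10 Gy. Every irradiated culture was above every untreated one. The means were 81.5 ± 37.2 and 384 ± 79.5 CPM (SD, n = 4), and the log2 fold change was 2.35 ± 0.19 (SE, adjusted p = 0.00168). Mdm2 (chr10:117524780-117546663), the ubiquitin ligase that degrades p53, rose in the same way, from 68.7, 58.8, 55 and 76.4 CPM to 221, 196, 142 and 240 CPM. Its log2 fold change was 1.63 ± 0.10 (adjusted p = 0.00123), and replicate 3 was the lowest library in each group. Ccng1, which encodes cyclin G1, was 252 ± 58.4 CPM untreated and 643 ± 97.2 CPM at 10 Gy (log2 fold change 1.38 ± 0.16, adjusted p = 0.00441), again without overlap. Plk3 (1.41 ± 0.12), Zmat3 (1.03 ± 0.11) and Phlda3, an inhibitor of Akt (1.0 ± 0.13), also rose with separate groups. Gdf15, a secreted stress hormone, differed between animals more than between treatments. It was at 8.18, 0.262, 0.692 and 14.3 CPM untreated and at 17.1, 3.4, 2.74 and 30.7 CPM at 10 Gy, so the groups overlapped although every pair rose (1.62 ± 0.34, adjusted p = 0.0254). Sesn1, a sestrin that restrains mTORC1, was the member that fell (−0.74 ± 0.12).

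Among the cell death targets, Pmaip1 (chr18:66591604-66598636), which encodes the BH3-only protein Noxa, was near or under the 3-count floor in most untreated libraries. It stood there at 0, 0.0872, 0.461 and 0.172 CPM, and at 4.35, 4.61, 3.67 and 4.51 CPM at 10 Gy. The irradiated cultures lay within a narrow range and far above the untreated ones (fitted log2 fold change 4.55 ± 0.58, adjusted p = 0.00602). Pidd1, a platform protein for caspase-2, was at 4.74, 1.35, 4.25 and 5.46 CPM untreated and at 20.3, 19.9, 11.1 and 26.4 CPM at 10 Gy (2.34 ± 0.35, adjusted p = 0.00961). Eda2r, a receptor of the tumour necrosis factor family, went from 17.9 ± 8.36 to 53.2 ± 14.6 CPM (1.64 ± 0.29, adjusted p = 0.0155), with replicate 3 lowest at 31.5 CPM. Bax, the pore-forming effector, rose less (0.70 ± 0.12), as did Bbc3, which encodes Puma (0.75 ± 0.19), and Fas (0.92 ± 0.14). Apaf1, the scaffold of the apoptosome, did not pass the test, at 28.8 ± 9.79 CPM untreated and 29.5 ± 6.48 CPM at 10 Gy. Of 7 p53 targets in repair and metabolism, 1 rose, the translesion polymerase Polk (0.80 ± 0.10), and the other members, among them Ddb2 (−0.13 ± 0.21) and Xpc (0.04 ± 0.10), did not pass. This count was also 1 without replicate 1 and 1 without replicate 4. A pro-death gene outside these lists moved the other way: Bmf, another BH3-only gene, fell from 20.3, 10.5, 26.9 and 30 CPM to 1.81, 3.86, 2.92 and 2.52 CPM (−2.92 ± 0.36, adjusted p = 0.00539).

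**Figure D2:**
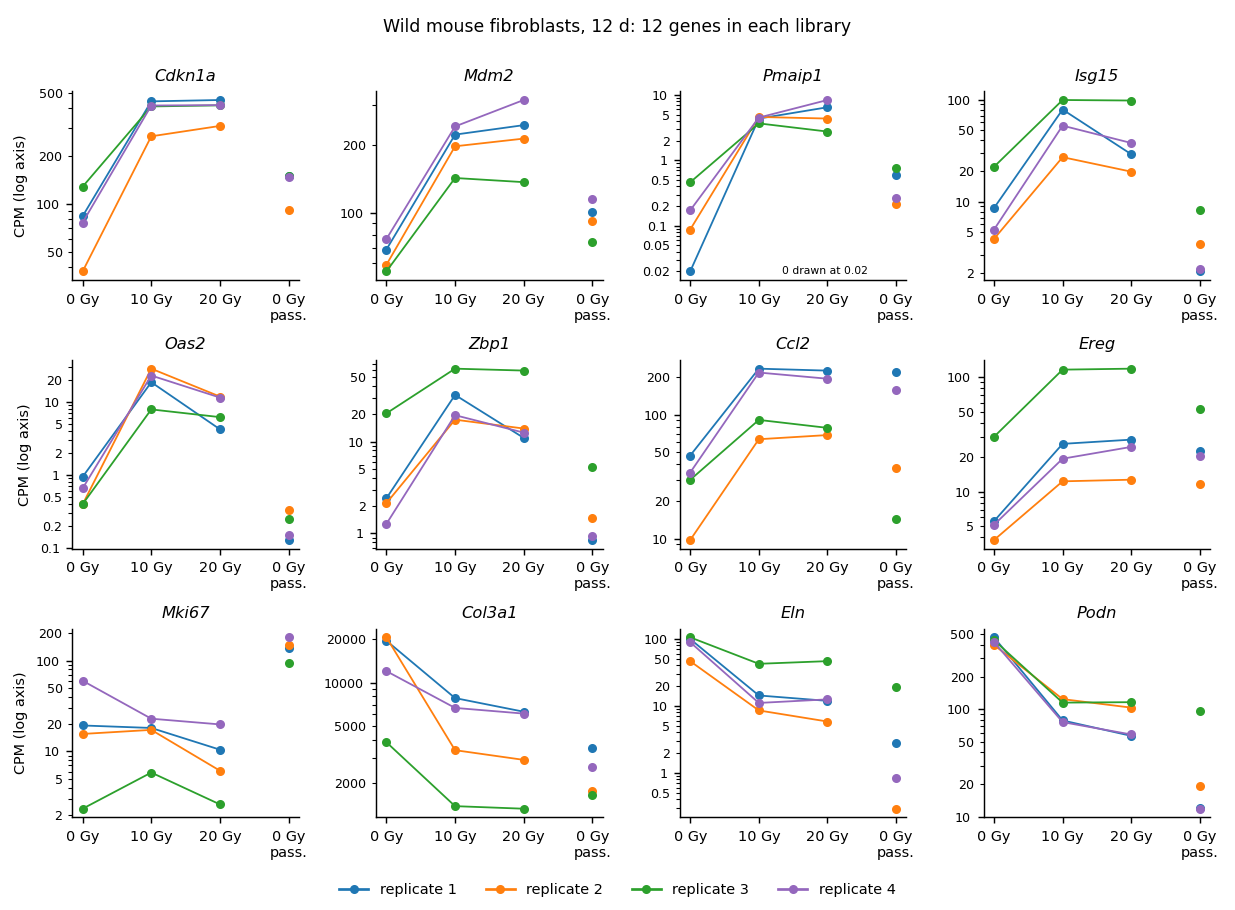
Each panel shows 1 gene, with CPM on a log axis for replicates 1 to 4 at 12 d; lines join the untreated, 10 Gy and 20 Gy cultures of a replicate number, separate points are untreated passaged cells, and a level of 0 is drawn at 0.02 CPM. Cdkn1a, Mdm2, Pmaip1, Isg15 and Oas2 were above the untreated range in all 4 cultures at 10 Gy, Eln and Podn below it, and Mki67 changed in no common direction.

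Interferon-induced genes rose at 10 Gy, and their summed level was higher in all 4 animals. Of 29 listed effectors 27 were expressed enough to be tested, and 25 of these rose and 0 fell, with a median log2 fold change of 2.65. In 19 of the 27 the irradiated and untreated libraries did not overlap, against 3.82% of all genes in this direction. Without replicate 1, 19 passed, and without replicate 4, 18. Mx1 and Epsti1 were too low to be tested. The summed level of the 27 genes was 512, 408, 670 and 428 CPM in untreated replicates 1 to 4 and 1370, 913, 1482 and 1146 CPM at 10 Gy. Of the 10 leukocyte and macrophage markers, Ptprc, Adgre1, Itgam, C1qa, C1qb and Mrc1 were at no more than 0.134 CPM in any of the 8 libraries. Csf1r reached 32.3 CPM, Lyz2 13.4 CPM and Cd14 14.04 CPM, and none of these passed the test. Cd68 was at 1.12, 2.09, 2.74 and 1.51 CPM untreated and at 2.21, 4.86, 4.09 and 4.10 CPM at 10 Gy (1.06 ± 0.22, adjusted p = 0.0245), and its part in the interferon levels was not tested.

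Oas2 was at 0.938, 0.393, 0.395 and 0.652 CPM untreated and at 18.7, 28.7, 7.91 and 23.1 CPM at 10 Gy. Replicate 3 was the lowest irradiated library, and was still well above every untreated one (4.98 ± 0.31, adjusted p = 0.00123). Its neighbours Oas3 (4.77 ± 0.38) and Oas1a (4.17 ± 0.36) rose as steeply, although the Oas1 genes have close copies whose shared reads were not counted. Isg15 was at 8.67, 4.32, 22 and 5.32 CPM untreated and at 80.2, 27.4, 99.5 and 55.7 CPM at 10 Gy (2.86 ± 0.21, adjusted p = 0.00168). Here replicate 3 was the highest library in both groups, and the groups did not overlap. Usp18, the protease that removes Isg15 from its targets, went from 2.14, 0.436, 3.16 and 1.61 CPM to 30.1, 14, 22.8 and 30 CPM (3.83 ± 0.31, adjusted p = 0.00168). Ifit1, which binds uncapped or incompletely capped RNA, went from 10, 2.88, 25.9 and 6.8 CPM to 118, 75.7, 168 and 97 CPM (3.65 ± 0.30, adjusted p = 0.00168). Cxcl10, a chemokine for T cells (3.54 ± 0.46), and Rsad2 (3.0 ± 0.57) rose from under 1 CPM and stayed low. Cxcl10 reached 2.41, 0.467, 0.638 and 4.51 CPM at 10 Gy, and Rsad2 3.05, 1.12, 2.14 and 3.95 CPM. Cxcl10 did not pass without replicate 4 (adjusted p = 0.054). Rsad2 passed neither without replicate 1 (adjusted p = 0.0755) nor without replicate 4 (0.0897). Smaller rises were measured for Eif2ak2, the RNA-dependent kinase PKR (0.93 ± 0.13), and Ifi204 (0.56 ± 0.14). Ifit2 (0.98 ± 0.26, adjusted p = 0.0519) and Ifi27 (0.24 ± 0.12, adjusted p = 0.232) did not pass.

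Of 12 sensors and transcription factors of the pathway, 8 rose and 0 fell (median 0.94), and 7 passed without replicate 1 and 7 without replicate 4. The RNA sensors Rigi (1.01 ± 0.13), Ifih1 (0.99 ± 0.14) and Dhx58 (1.81 ± 0.18) all rose without overlap between the groups. Zbp1 was at 2.41, 2.14, 20.3 and 1.27 CPM untreated and at 32.1, 17.3, 62.1 and 19.4 CPM at 10 Gy. Because replicate 3 was already at 20.3 CPM the groups overlapped, but each pair rose (2.98 ± 0.38, adjusted p = 0.00616). Irf7, the factor that amplifies interferon production, rose (1.87 ± 0.17), as did Stat2 (1.01 ± 0.10) and Irf9 (0.84 ± 0.11), which act together downstream of the interferon receptor. The DNA sensor Cgas (0.27 ± 0.21), its partner Sting1 (−0.21 ± 0.12), Trim25 (0.30 ± 0.09) and Irf1 (−0.03 ± 0.16) did not pass. Of 11 genes of antigen presentation by MHC class I, 3 rose, beside 5.96% of all genes: Nlrc5, their transactivator (3.77 ± 0.59), the immunoproteasome subunit Psmb8 (0.86 ± 0.22) and the peptide transporter Tap1 (0.54 ± 0.14). Of these, 1 passed without replicate 1 and 0 without replicate 4, while 6 of the 11 stood at an unadjusted p under 0.05 with all replicates. B2m was 520 ± 165 CPM untreated and 661 ± 173 CPM at 10 Gy (adjusted p = 0.112). H2-K1 and H2-D1 did not pass either, and reads shared with other H2 genes were not counted for them.

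**Figure D3:**
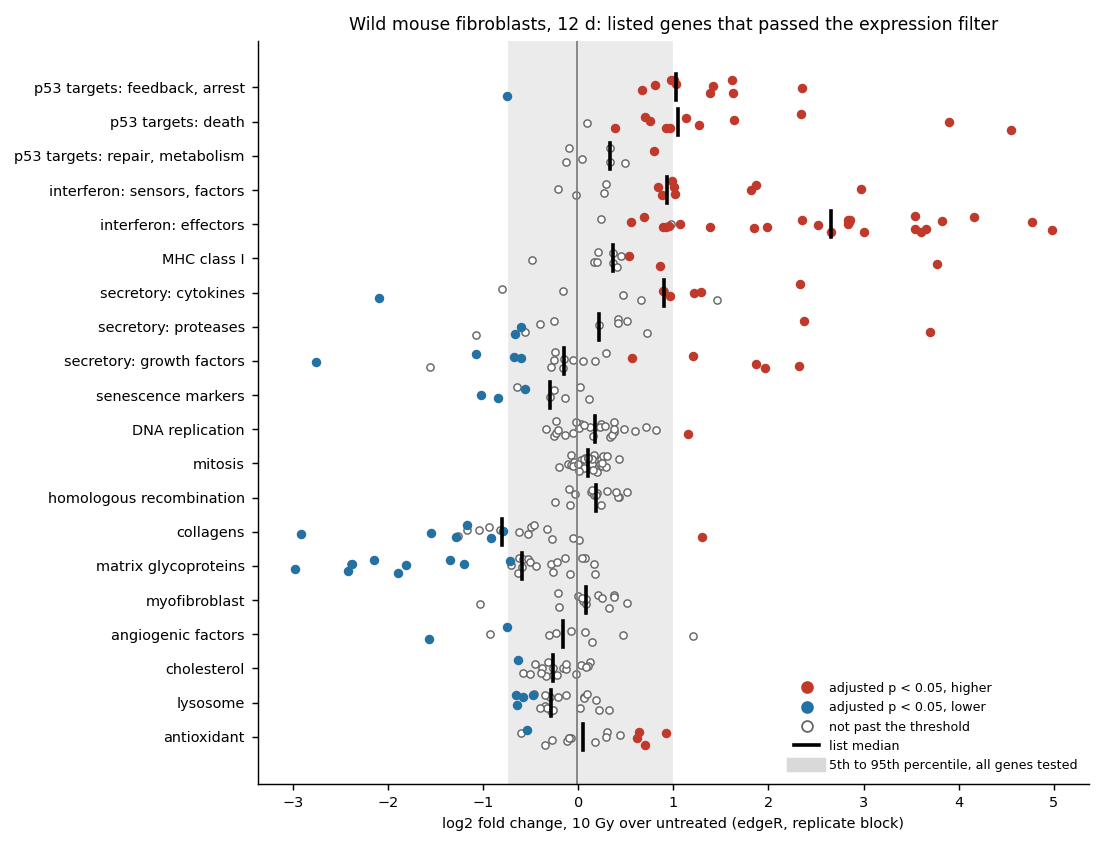
Each point is the log2 fold change of 1 list member at 10 Gy against untreated, red where it was higher and blue where it was lower at an adjusted p under 0.05, white otherwise; black bars are list medians, and the grey band spans the 5th to the 95th percentile of all genes tested. The interferon effectors have the highest median, 2.65, the p53 lists of arrest and death lie near 1, and the mitosis list lies near 0 with no coloured point.

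Almost no gene of DNA replication or mitosis passed the test at 10 Gy against untreated. Of 31 mitosis genes 0 passed (median log2 fold change 0.10), with 0 at an unadjusted p under 0.05 and 0 in DESeq2. Of 15 homologous recombination genes 0 passed in edgeR or in DESeq2, with 1 at an unadjusted p under 0.05. Both counts were also 0 without replicate 1 and without replicate 4. Mki67, a marker of dividing cells, was at 19.3, 15.6, 2.34 and 60 CPM untreated and at 18.1, 17.3, 5.85 and 22.9 CPM at 10 Gy (−0.07 ± 0.36, adjusted p = 0.912). It was higher in 2 irradiated cultures and lower in 2, and the widest gap was in replicate 4, whose untreated library had the highest level. Top2a showed the same layout (−0.11 ± 0.21, adjusted p = 0.77). Untreated cells at 12 d were themselves low in these genes: the 31 mitosis genes summed to 426, 243, 121 and 886 CPM untreated, to 439, 300, 199 and 557 CPM at 10 Gy, and to 1732, 2133, 1319 and 2298 CPM in the untreated passaged cells. The passaged group was described only and entered no comparison with 10 Gy. Of 27 replication genes 1 rose, the ribonucleotide reductase subunit Rrm2 (1.16 ± 0.20, adjusted p = 0.0132), from 38.1, 46.9, 4.84 and 39 CPM to 127, 62.6, 11 and 92.2 CPM. It did not pass without replicate 1 (adjusted p = 0.052) or without replicate 4 (0.0671).

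Of 9 markers that are often read for senescence beside Cdkn1a, 0 rose and 3 fell, against 5.96% and 6.72% of all genes. Of these markers, 1 passed without replicate 1 and 1 without replicate 4. Cdkn2a, whose locus encodes p16 and Arf, was at 106, 76.4, 109 and 90 CPM untreated and at 83.4, 53.2, 76 and 98.7 CPM at 10 Gy (−0.30 ± 0.13, adjusted p = 0.178). Its neighbour Cdkn2b was 40.8 ± 19 and 41.1 ± 6.77 CPM. Lmnb1, the nuclear lamina protein whose loss is a common senescence marker, was 12.5 ± 3.9 and 12.5 ± 3.43 CPM (adjusted p = 0.943). Untreated cells at 12 d were themselves low in Lmnb1, which stood at 59.8 ± 11.1 CPM in the untreated passaged cells. Among the kinase inhibitors the direction was thus not shared, since Cdkn1b, which encodes p27, fell while Cdkn1a rose. Cdkn1b was at 106, 111, 122 and 110 CPM untreated and at 49.3, 62.8, 52.1 and 54.3 CPM at 10 Gy. The groups were tight and well apart (−1.03 ± 0.10, adjusted p = 0.00274), and this gene also passed without the replicate block (adjusted p = 0.0274). Cdkn2c (−0.84 ± 0.19) and the chromatin protein Hmgb1 (−0.56 ± 0.11) were the other members that fell.

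**Figure D4:**
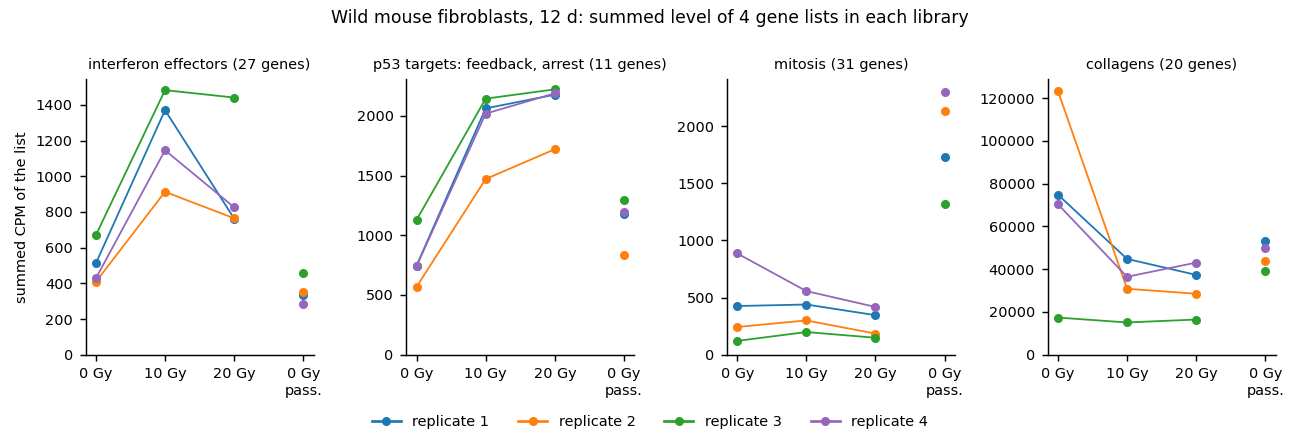
Points give the summed CPM of the tested members of 4 lists in each library at 12 d, by group, with 1 line or mark per replicate number. Interferon effectors and p53 targets of arrest were above the untreated level of the same replicate in all 4 cultures at 10 Gy, collagens were below it, and the mitosis sum of the passaged cells, 1319 to 2298 CPM, was above all other groups.

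The secretory genes changed in both directions. Their counts stand beside 5.96% of all genes higher and 6.72% lower. Without replicate 1, 2.52% of all genes were called, and without replicate 4, 3.92%. Of 19 listed cytokines and chemokines 12 could be tested, and 5 rose and 1 fell (median 0.90). Il1a, Il1b, Tnf, Csf2, Csf3, Cxcl2 and Ccl20 were too low to be tested. Without replicate 1, 4 passed, and without replicate 4, 3. Ccl2 (chr11:81926397-81928279), which attracts monocytes, was at 46.8, 9.77, 29.8 and 34.1 CPM untreated and at 234, 63.3, 90.5 and 218 CPM at 10 Gy. All irradiated libraries were above the untreated ones, with replicates 1 and 4 highest (2.33 ± 0.20, adjusted p = 0.00188). Il6 was at 15.1, 9.94, 28.9 and 12 CPM untreated and at 20.5, 22, 69.8 and 22.7 CPM at 10 Gy. The untreated library of replicate 3 exceeded 3 irradiated ones, so the groups overlapped, while every pair rose (0.96 ± 0.15, adjusted p = 0.0104). Csf1, a growth factor of macrophages, was high throughout, at 844, 647, 1750 and 826 CPM untreated and at 1986, 1431, 5936 and 1320 CPM at 10 Gy (1.22 ± 0.21, adjusted p = 0.0132). Cxcl1 (1.29 ± 0.23) and Ccl7 (0.89 ± 0.19) rose. Il1rn, the antagonist of the interleukin-1 receptor, fell from 26.9, 1.74, 0.626 and 15.7 CPM to 3.79, 0.374, 0.15 and 6 CPM (−2.09 ± 0.29, adjusted p = 0.00717).

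Of 16 listed proteases and inhibitors 13 could be tested, with 2 higher and 2 lower, beside 5.96% and 6.72% of all genes. Without replicate 1, 2 passed, and without replicate 4, 1. Serpine2, an inhibitor of thrombin and plasminogen activators, went from 0.581, 0.523, 5.96 and 0.549 CPM to 16.8, 12.9, 18.6 and 14.6 CPM. The irradiated cultures were alike and separate from the untreated ones (3.69 ± 0.57, adjusted p = 0.0104). Mmp13, a collagenase, was above 1 CPM in replicate 3 alone, where it went from 17.1 to 110 CPM (2.37 ± 0.36 over the 4 pairs, adjusted p = 0.00972). The gelatinase Mmp2 (−0.67 ± 0.12) and the plasminogen activator Plat (−0.60 ± 0.16) fell. Of 20 growth factors, binding proteins and receptors 19 could be tested, with 5 higher and 4 lower, and 4 passed without replicate 1 and 5 without replicate 4. Ereg, a ligand of the epidermal growth factor receptor, was at 5.54, 3.79, 30.1 and 5.15 CPM untreated and at 26.2, 12.3, 116 and 19.4 CPM at 10 Gy. Its rise was nearly the same in each animal, although their levels differed several-fold (1.97 ± 0.11, adjusted p = 0.00123). Spp1, which encodes osteopontin (2.32 ± 0.35), the adhesion molecule Icam1 (1.86 ± 0.31), Fgf2 (1.20 ± 0.17) and Fgf7 (0.56 ± 0.13) were the other members that rose. Igfbp3, an insulin-like growth factor binding protein, fell from 1115, 35.1, 112 and 918 CPM to 131, 7.32, 7.31 and 254 CPM (−2.75 ± 0.34, adjusted p = 0.00532). Igfbp4 (−1.08 ± 0.22), Igfbp6 (−0.67 ± 0.17) and Angptl4 (−0.60 ± 0.15) fell as well.

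Genes of the extracellular matrix that changed were mostly lower. Beside 6.72% of all genes lower and 5.96% higher, 6 of 20 collagens fell and 1 rose (median −0.80). Of 27 matrix glycoproteins and proteoglycans 9 fell and 0 rose (median −0.59). These counts depended on replicates 1 and 4: without replicate 1, 2 collagens and 5 glycoproteins passed, and without replicate 4, 2 and 4. Replicate 3 had the lowest collagen sum in every group, at 17390 CPM untreated and 15094 CPM at 10 Gy. In replicates 1, 2 and 4 the sums were 74864, 123327 and 70399 CPM untreated and 44819, 30855 and 36465 CPM at 10 Gy. In the passaged cells replicate 3 lay nearer the others, at 39390 CPM beside 43858 to 53229 CPM.

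Col3a1 (chr1:45350698-45388866), the main chain of type III collagen, was at 19557, 20642, 3844 and 12011 CPM untreated and at 7801, 3386, 1381 and 6664 CPM at 10 Gy. Every pair fell (−1.54 ± 0.34, adjusted p = 0.0284), but the call did not hold without replicate 1 (adjusted p = 0.128) or without replicate 4 (0.0758). For the type I chains Col1a1 (−0.94 ± 0.40, adjusted p = 0.163) and Col1a2 (−1.17 ± 0.37, adjusted p = 0.0806) the test was not passed. Col8a2, a short-chain collagen, fell (−2.91 ± 0.38), and so did Col15a1 (−1.29 ± 0.24), Col6a1 (−1.17 ± 0.20), Col6a2 (−0.91 ± 0.22) and Col16a1 (−0.79 ± 0.14). Col7a1, which forms the fibrils that anchor the epidermis, was the collagen that rose. It went from 11.4, 86.7, 5.3 and 18.8 CPM to 27.8, 166, 12.2 and 63.2 CPM (1.31 ± 0.14, adjusted p = 0.00376).

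The 9 matrix glycoproteins and proteoglycans that fell had different roles. Eln (chr5:134731447-134776177), which encodes elastin, was at 98.9, 46.2, 105 and 88.8 CPM untreated and at 14.2, 8.51, 42.3 and 11 CPM at 10 Gy. The groups did not overlap, and replicate 3 kept the highest level (−2.37 ± 0.27, adjusted p = 0.00417). Mfap4 (−2.97 ± 0.22), a microfibril-associated protein, also passed without replicate 1 and without replicate 4. Fbln1 (−1.20 ± 0.31) and the cross-linking enzyme Loxl1 (−0.72 ± 0.12) fell, but passed neither without replicate 1 nor without replicate 4. Fbn2, a fibrillin, was at 111.5, 0, 0.033 and 153 CPM untreated and at 33.1, 0.187, 0 and 34.7 CPM at 10 Gy (−1.81 ± 0.33, adjusted p = 0.0168). Its fall thus rested on replicates 1 and 4, and it was too low to be tested without either of them. Fbn1, the more abundant fibrillin, did not pass (−0.27 ± 0.32, adjusted p = 0.618) and was higher at 10 Gy in replicate 3, and Fbln5 (0.07), Fbln2 (−0.28) and Lox (−0.23) did not pass either. Podn (chr4:107871988-107953642), a small leucine-rich proteoglycan, was even between animals, at 469, 399, 442 and 424 CPM untreated and at 78.9, 125, 116 and 76.2 CPM at 10 Gy. It was one of the 38 genes that also passed without the replicate block (−2.15 ± 0.18, adjusted p = 0.00168 with the block and 0.0159 without). Ogn (−1.90 ± 0.45), Fmod (−1.35 ± 0.19) and Tnn (−2.42 ± 0.42) were the other members that fell. Ogn did not pass without replicate 1 (adjusted p = 0.0867), without replicate 2 (0.0732) or without replicate 4 (0.0754). Among abundant members, Bgn (−0.62 ± 0.29, adjusted p = 0.199) and Thbs1 (0.04 ± 0.35, adjusted p = 0.956) did not pass. Of 14 contractile and myofibroblast genes 0 passed in edgeR, with 1 at an unadjusted p under 0.05 and 1 called by DESeq2, and 0 passed without replicate 1 or without replicate 4. Acta2, which encodes smooth muscle actin, was 4334 ± 1566 CPM untreated and 4141 ± 782 CPM at 10 Gy (adjusted p = 0.999). The pericyte and smooth muscle markers Myh11 and Des were higher at 10 Gy, and their part in these levels was not tested.

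Further lists are read beside the 5.96% of all genes that were higher and the 6.72% that were lower. Of 10 tested angiogenic factors 2 fell, and 1 passed without replicate 1 and 1 without replicate 4. Apln, which encodes the peptide hormone apelin, was at 33.6, 54.8, 39.1 and 40.9 CPM untreated and at 14.6, 16.1, 11.4 and 13.8 CPM at 10 Gy, without overlap (−1.57 ± 0.12, adjusted p = 0.00168). Of 16 antioxidant genes 4 rose and 1 fell, with 1 left without replicate 1 and 1 without replicate 4. Hmox1, the haem-degrading enzyme, went from 175 ± 30.2 to 331 ± 60.7 CPM (0.93 ± 0.10, adjusted p = 0.00379). Txnrd1 (0.70 ± 0.13), Nqo1 (0.64 ± 0.12) and Gclc (0.62 ± 0.13) rose, and the secreted superoxide dismutase Sod3 fell (−0.54 ± 0.14). Of 21 lysosomal genes 4 fell, among them Lamp2 (−0.65), Ctsk (−0.64) and Neu1 (−0.47), with 0 left without replicate 1 and 1 without replicate 4. Of 19 cholesterol genes 1 fell, Stard4 (−0.63 ± 0.16), a share below that of all genes, and it passed neither without replicate 1 nor without replicate 4.

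Outside the lists, the genes with the largest rises that also held without replicate 1 and without replicate 4 included members of the prolactin family, which are made mainly by the placenta. Prl2c3 (chr13:12805705-12814968) was at 0.581, 0.0872, 0.198 and 0.755 CPM untreated and at 58.7, 4.14, 0.638 and 55.9 CPM at 10 Gy (5.94 ± 0.55, adjusted p = 0.0023). Replicates 1 and 4 were thus high, and replicate 3 at 10 Gy lay within the untreated range. Prl2c3 and Prl2c2 (3.87 ± 0.52) are near-identical copies whose shared reads were not counted, so their separate levels are uncertain. Olr1, a scavenger receptor for oxidised lipoprotein, went from 1.61, 0.0436, 1.71 and 1.06 CPM to 16.7, 2.18, 16.5 and 27.4 CPM (3.86 ± 0.32, adjusted p = 0.00168). Hsd3b6, a steroid dehydrogenase, had 0 counts in untreated replicates 1, 2 and 4 and 4.58 CPM in replicate 3, and stood at 7.47, 2.21, 51.5 and 5.47 CPM at 10 Gy. Cck, which encodes cholecystokinin, rose in each pair (3.55 ± 0.36), with replicate 3 highest in both groups at 9.98 and 59.1 CPM. The largest falls by the same rule, beside genes named above, were Adamtsl2, a protein of microfibrils (−3.37 ± 0.22), Cilp, a matrix protein of cartilage and fibroblasts (−3.0 ± 0.25), Tmem252 (−2.67 ± 0.29), Egfl6 (−2.45 ± 0.21) and Ecrg4 (−2.41 ± 0.27). Cilp was at 465, 1282, 6.03 and 509 CPM untreated and at 69, 92.1, 0.638 and 96.6 CPM at 10 Gy, so that replicate 3 was low in both groups and every pair fell.

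A dose of 20 Gy was compared directly with 10 Gy in the same 4 animals. Of 14770 genes 38 passed (0.257%), 1 higher (0.00677%) and 37 lower (0.251%) at 20 Gy, and 8 passed without replicate 1, 119 without replicate 3, 18 without replicate 4 and 0 without the replicate block, where 37 stood at an unadjusted p under 0.05. Antiviral and mitosis genes were among the 37. Of 28 tested interferon effectors 4 were lower at 20 Gy, Cxcl10 (−1.54 ± 0.26), Rsad2 (−1.47 ± 0.24), Oas2 (−1.19 ± 0.18) and Oas1a (−1.04). Of the 28, 25 stood at an unadjusted p under 0.05, and 2 passed without replicate 1, 21 without replicate 3 and 1 without replicate 4. Oas2 was at 4.22, 11.9, 6.2 and 11.5 CPM at 20 Gy, below the 10 Gy culture of the same replicate in each case and above every untreated library. Trim30a, an interferon-induced TRIM protein, was also lower at 20 Gy (−0.80 ± 0.11, adjusted p = 0.0176). Isg15, at 29.2, 19.7, 98.3 and 37.7 CPM, did not pass (adjusted p = 0.176). Of 31 mitosis genes 6 were lower at 20 Gy than at 10 Gy, among them Kif11, a spindle motor (−1.01 ± 0.12, adjusted p = 0.00456), and the list median was −0.51. Without replicate 1, 3 passed, without replicate 2, 2, without replicate 3, 13, and without replicate 4, 2. Lmnb1 was lower as well (−0.54 ± 0.08, adjusted p = 0.0204). Of the 11 arrest and 12 death targets of p53, 0 passed in edgeR and 0 in DESeq2, with 3 and 0 at an unadjusted p under 0.05, and both counts were also 0 without replicate 1 and without replicate 4. Cdkn1a stood at 451, 310, 417 and 419 CPM at 20 Gy (0.07 against 10 Gy, adjusted p = 0.875). Of 20 collagens 0 were called between the doses in edgeR, 0 in DESeq2 and 2 at an unadjusted p under 0.05, with 0 called without replicate 1 and 1 without replicate 4.

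Each dose was also set against the same untreated libraries, so the following counts share them. At 20 Gy 2224 of 14399 genes passed (15.4%), 1103 higher (7.66%) and 1121 lower (7.79%), with 288 without replicate 1 and 374 without replicate 4. The median log2 fold change of the arrest targets was 1.12 at 20 Gy and 1.03 at 10 Gy. For the interferon effectors it was 1.66 at 20 Gy and 2.65 at 10 Gy, and for the collagens −0.81 and −0.80. For mitosis genes it was −0.44, with 3 of 31 lower at 20 Gy (0 without replicate 1 and 0 without replicate 4), and 0.10 with 0 called at 10 Gy.

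At 24 h after 10 Gy 0 of 14412 genes passed (0%), with 1564 at an unadjusted p under 0.05 and 389 called by DESeq2. Without replicate 1 3309 genes passed, and without replicate 2, 3 or 4 again 0. At 24 h the 10 Gy library of replicate 1 held 17.42 M counts, the lowest of the wild mouse libraries, and the 24 h libraries of this replicate had summed pericyte and smooth muscle markers of 1746 to 2417 CPM. The part of these values in the count was not tested. Mki67 was 163 ± 41 CPM untreated and 80.4 ± 32.7 CPM at 10 Gy at 24 h (SD, n = 4), where at 12 d it was 24.3 ± 24.9 and 16 ± 7.23 CPM. Isg15 was 3.62 ± 1.86 CPM untreated and 7.84 ± 10.2 CPM at 10 Gy at 24 h, beside 10.1 ± 8.15 and 65.7 ± 31.2 CPM at 12 d. Cdkn1a was 178 ± 84.5 CPM untreated and 395 ± 84.2 CPM at 10 Gy at 24 h. These levels are side by side only, because of the batches given above.

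In C56BL6 fibroblasts at the same dose and time 5786 of 14894 genes passed (38.8%), and 6102, 4535, 3376 and 4171 without replicates 1 to 4. Replicate 1 stood apart there in keratinocyte markers, which summed to 984.6 CPM untreated and 253.5 CPM at 10 Gy, against 2.49 to 4.82 CPM in the other C56BL6 animals. Their part in the results was not tested beyond the counts without that animal. The median log2 fold change of the p53 arrest list was 0.92 there and 1.03 in wild mice, of the interferon effectors 1.85 and 2.65, and of the collagens −1.32 and −0.80. These lists were compared between populations only gene by gene, by the interaction of dose and population over 16 libraries with the animal as a block. The interaction was called for 52 of 15850 genes (0.328%), 36 with the higher change in wild mice and 16 with the lower. This count was unstable. It was 3 without wild replicate 1, 81 without wild replicate 2, 200 without wild replicate 3, 0 without wild replicate 4, 139, 0, 1 and 1 without C56BL6 replicates 1 to 4, and 0 without the replicate block. In the fits with a count of 0, 1351 genes (without wild replicate 4), 1275 (without C56BL6 replicate 2) and 302 (without the block) stood at an unadjusted p under 0.05.

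Cdkn1a was among the 52 genes. In C56BL6 cells it went from 430 ± 114 to 776 ± 69.3 CPM (0.92 ± 0.13), against 81.5 ± 37.2 to 384 ± 79.5 CPM in wild cells. The change was larger in wild cells by 1.44 ± 0.24 on the log2 scale (adjusted p = 0.0472), and the untreated level was higher in C56BL6 cells, at 322 to 590 CPM. Trim30a rose from 4.07, 1.13, 0.988 and 2.92 CPM to 36.1, 24.5, 5.55 and 30.4 CPM in wild cells (3.38 ± 0.28) and from 15.1 ± 3.49 to 27.7 ± 6.8 CPM in C56BL6 cells (0.91 ± 0.10), a difference of 2.48 ± 0.29 (adjusted p = 0.0189). Nqo1, an antioxidant reductase, rose less in wild cells (0.64) than in C56BL6 cells (1.87), by −1.23 ± 0.16 (adjusted p = 0.0189). Egfl6 fell in both (−2.45 and −6.09, difference 3.69 ± 0.44, adjusted p = 0.0189). Nt5e, which encodes the ecto-nucleotidase CD73, fell in wild cells (−2.06) and was 0.07 in C56BL6 cells, a difference of −2.12 ± 0.27 (adjusted p = 0.0189). Bdnf (difference −1.60 ± 0.25), Csf1r (−1.41 ± 0.22) and Kcnmb1 (−3.17 ± 0.44) had the lower change in wild cells, and H19 (3.18 ± 0.48), Cyp2f2 (2.92 ± 0.45) and Arhgap20 (2.88 ± 0.49) the higher. Wild levels of Kcnmb1, H19, Arhgap20 and Egfl6 were concentrated in replicates 1 and 4. Kcnmb1 had at most 0.0623 CPM in the untreated and 10 Gy cultures of the other animals. Wild Egfl6 was at 402, 9.77, 0.923 and 349 CPM untreated and at 57.7, 1.81, 0.0375 and 86.7 CPM at 10 Gy. Wild Nt5e was highest in replicate 3, at 86.3 CPM untreated against 3.53 to 13.3 CPM in the other animals, though every pair fell. Of the listed p53 death genes, 0 were called in edgeR and 0 in DESeq2, with 3 at an unadjusted p under 0.05.

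**Figure D5:**
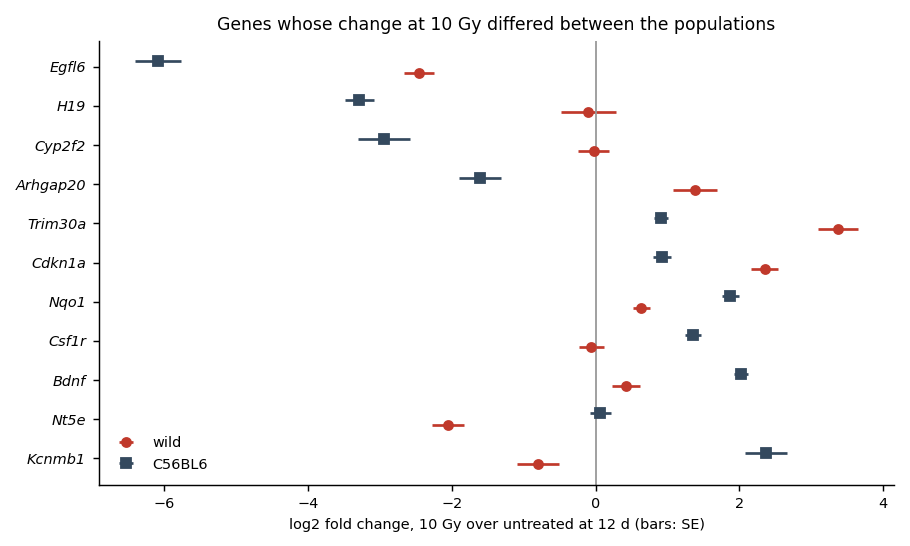
Points give the log2 fold change at 12 d of 10 Gy against untreated, with its standard error as bars, for 11 genes named from the test of the difference, in wild and in C56BL6 fibroblasts. Cdkn1a and Trim30a rose in both and further in wild cells (2.35 against 0.92 and 3.38 against 0.91), and Nqo1 rose further in C56BL6 cells (0.64 against 1.87).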

How the data were processed

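Reads per gene were counted by the authors with featureCounts 2.0.3 against GRCm39 and Ensembl release 108, per the file headers, and the deposited values are raw counts. The submitters' processing notes also name Trim Galore and HISAT2. The recorded command set no option for strand, multiply mapped reads or overlapping genes, so reads of near-identical, overlapping and antisense genes are uncertain. The deposited gene lengths (another kind of value, in base pairs, made by the authors) and the Acomys cahirinus table were not used here.

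All 56 mouse count columns were matched to a library by name, and 0 were unused. Of 56980 gene identifiers 56236 had a symbol in GENCODE M39, of the same build. Depth was 23.14 to 31.2 M counts per library in the 8 libraries of the main comparison, and without molecular identifiers the floor of 3 counts covers counting error only. CPM are counts per M counts of a library whose size was scaled by TMM among the libraries of its population and time. The floor was computed without this scaling.

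Groups were compared in edgeR 4.0.16 (R 4.3.3) with filterByExpr, TMM scaling, the quasi-likelihood test, the replicate number as a block and Benjamini-Hochberg adjustment over all genes tested, at 0.05. Each of the 6 comparisons was fitted on its own groups. The main fit and the interaction fit were also run on simulated counts with known changes. Those libraries were drawn independently, so they do not bear on how far replicates 1 and 4 move the counts of called genes. Errors of log2 fold changes are standard errors. The pairing comes from the library names, which give each number 1 animal code. Deviations from the group means correlated at 0.733 to 0.868 between same-numbered libraries of the 2 groups (4 pairs), at 0.520 to 0.691 between numbers 1 and 4, and at −0.547 to −0.183 between the other numbers. The labels do not say that cultures of different animals were otherwise independent. With the block, p-values set a change against its spread across the pairs of these samples only.

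Members and the 20 gene lists (347 genes), 8 cell type lists and a panel of 15 genes were chosen with earlier results of these data known. Lists are described by counts and medians, without a test. Named genes were the panel, the 10 highest and 10 lowest log2 fold changes among genes that passed in all replicates, without replicate 1 and without replicate 4, averaging 5 CPM or more and with 1 direction in 4 pairs, up to 4 called and 2 uncalled members of each list, and up to 5 genes in each direction for the dose difference and the interaction. Further members of the lists, and Rsad2 and Cxcl10 at 20 Gy, were named after their values were seen. Some list members are counted but not reported by name here. Promoters were the 200 bases before the start of each canonical GENCODE transcript. Alternatives were no replicate block, no filter on low counts, DESeq2 1.42.0 with its Wald test, RLE scaling, leaving out each replicate, all 4 groups at 12 d in 1 fit, and replicates 1 and 4 sharing a block level or summed. List counts under the leave-outs were added after seeing the data.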

Additional observations from a re-analysis of the deposited data

Results flagged for a closer look

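A library far from the other 3 of its group was found in 10 of 70 groups examined with Dixon's test. A chance rate of about 1 in 20 holds for independent groups of normally spread values. These groups are genes measured in the same libraries, so the 10 are not weighed against that rate. Replicate 3 was the library apart in 7 of the 10. At 10 Gy it was low for Eda2r (31.5 CPM) and high for Il6 (69.8 CPM), Hsd3b6 (51.5 CPM), Mfap4 (13.99 CPM) and Eln (42.3 CPM). Untreated, it was high for Hsd3b6 (4.58 CPM) and Cck (9.98 CPM). Replicate 2 was low for Phlda3 (67.5 CPM) and high for Ecrg4 (201 CPM) among the untreated libraries, and replicate 1 was high for Acta2 (5306 CPM) at 10 Gy.

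The change at 10 Gy differed between wild and C56BL6 cells for 11 named genes by the interaction of dose and population in edgeR. On the log2 scale, wild minus C56BL6, it was 1.44 for Cdkn1a, 3.69 for Egfl6, 3.18 for H19, 2.92 for Cyp2f2, 2.88 for Arhgap20 and 2.48 for Trim30a. It was −1.23 for Nqo1, −3.17 for Kcnmb1, −2.12 for Nt5e, −1.60 for Bdnf and −1.41 for Csf1r. None of the 52 called genes can be taken as stable, since the count was 0 without wild replicate 4 and 0 without C56BL6 replicate 2.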

How the results depend on the processing

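The number of genes past the threshold at 10 Gy ranged from 365 to 1775 when 1 replicate was left out, and was 1824 with all. Without the replicate block it was 38, all of them among the 1824, with all 4 groups at 12 d in 1 fit 3591, without the expression filter 2983, and with replicates 1 and 4 summed 520. Of 1824 called genes, the 1808 tested without replicate 1 and the 1806 tested without replicate 4 kept their direction. At 20 Gy against untreated the count of 2224 became 10 without the replicate block and 288 to 2469 with 1 replicate left out. For 20 against 10 Gy the 38 became 0 without the replicate block, 292 without the filter and 8 to 119 with 1 replicate left out. At 24 h the 0 became 389 in DESeq2 and 0 to 3309 with 1 replicate left out. In C56BL6 cells the 5786 became 3107 without the replicate block and 3376 to 6102 with 1 replicate left out. For the interaction the 52 became 0 without the replicate block, 540 without the filter, 286 in DESeq2 and 0 to 200 with 1 replicate left out. The cause of these differences was not tested.

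Without the replicate block 5 interferon effectors, 2 arrest targets and 0 death targets of p53 passed. Among named genes 76 values were no longer past the threshold without the replicate block and 46 kept their side of it. Of all values of named genes in the main comparison, 23 turned sign, in 9 genes that were not called. With 1 replicate left out at a time, the log2 fold change ranged from −0.0819 to 0.33 for Cdkn2b (0.11 with all; −0.0040 without replicate 1), from −0.43 to 0.41 for Mki67 (−0.07), from −0.24 to 0.18 for Top2a (−0.11), from −0.1286 to 0.14 for Lmnb1 (0.02), from −0.1253 to 0.24 for Acta2 (0.0007), from −0.0877 to 0.0313 for E2f1 (−0.02), from −0.1097 to 0.49 for Igfbp2 (0.17) and from −0.1423 to 0.34 for Thbs1 (0.04). With replicates 1 and 4 summed Cdkn2b was −0.0351, Mki67 0.0667, Acta2 −0.0468 and Thbs1 −0.1213. Without the replicate block Acta2 was −0.0545, Tpx2 −0.0467 (0.26 with it) and Thbs1 −0.2107. With all 4 groups in 1 fit Acta2 was −0.062 and Thbs1 −0.0459. Acta2 was −0.0186 without the filter, and Mki67 0.0009 in DESeq2.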

Other observations

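The untreated passaged cells at 12 d, which entered no comparison with 10 Gy, held the lowest matrix levels of the 4 groups for several genes that fell after irradiation. Podn was at 12.2, 19.4, 95.8 and 11.9 CPM in passaged replicates 1 to 4, and Eln at 2.79, 0.29, 18.9 and 0.822 CPM. This did not hold for the collagen list, with mean sums of 46549.5 CPM passaged, 31808 CPM at 10 Gy and 71495 CPM untreated. Matrix glycoproteins and proteoglycans had mean sums of 66175 CPM passaged and 66768 CPM at 10 Gy. Mki67 was at 137, 147, 93.8 and 180 CPM in the passaged cells. Interferon effectors summed to 336, 349, 456 and 286 CPM there, below the untreated culture of the same replicate in each case. Cdkn1a was at 150, 91.1, 150 and 147 CPM, between the untreated and the 10 Gy level of each replicate. Prl2c3 was at 41.6, 5.44, 0.035 and 22.6 CPM, so that the order of the animals was that of the 10 Gy cultures.

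Genes that set single animals apart in all 4 groups at 12 d included regulators of position along the body. In replicate 3 these were Tbx4 above and Hoxc8, Hoxc9, Hoxc10, Hoxc13, Irx1 and Irx2 below the other animals, and in replicate 2 Zic1 above and Hoxb7 below.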
